A study of Mus musculus with 16 samples.

Results

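The genes described here move salt, bicarbonate and water across the lining of the colon. They are 38 genes chosen by symbol from the 54392 gene symbols of the count table, and comprise absorptive exchangers, secretory channels and the carriers that load them, carbonic anhydrases, aquaporins, sodium pump beta subunits, the guanylin hormones with their receptor, and 2 regulatory kinases. Subunits of the epithelial sodium channel are not among them. All 38 were measured above the filter on low counts, which kept 14321 genes. The RNA came from colonocytes of C57BL/6 mice fed for 3 weeks either corn oil with cellulose (9 libraries) or fish oil with pectin (7 libraries). Corn oil is rich in n-6 fatty acids and cellulose is a poorly fermented fibre, while fish oil supplies n-3 fatty acids and pectin is fermented by gut bacteria. No strain, genotype or treatment other than the diet separated the groups in the labels. Titles number the libraries as biological replicates without saying that each came from its own mouse, so the p-values reflect only how far these libraries vary. The names of 10 libraries began with GC (5 per diet) and those of the other 6 did not (4 corn oil/cellulose and 2 fish oil/pectin). The meaning of the prefix was not given in the sources used here, and its presence was a term of the model.

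Surface cells of the colon take up sodium and chloride mainly by exchange. Slc9a3 and Slc9a2 trade sodium for protons, Slc26a3 trades chloride for bicarbonate, carbonic anhydrases supply the protons and bicarbonate, and water follows the salt. Secretion runs the other way: Slc12a2 loads chloride from the blood side, potassium channels keep the cell negative, and chloride leaves through Cftr at the apical membrane. Guanylin and uroguanylin, the peptides made from Guca2a and Guca2b, bind the receptor guanylate cyclase encoded by Gucy2c, which raises cyclic GMP and so opens Cftr and slows Slc9a3.

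Levels are given as CPM, which are read counts brought to one common depth by way of TMM factors (0.894 to 1.055 over the libraries). Totals ran from 13996288 to 19512755 counts. The epithelial label held: Epcam was at 2057 to 2798 CPM over all libraries, whereas the smooth muscle gene Acta2 reached at most 0.213 CPM and the B cell gene Cd79a at most 0.16 CPM. Epithelial genes were not level between the diets, however. The summed level of 6 of them was 14390 to 15360 CPM in the GC-named corn oil/cellulose libraries and 17580 to 21580 CPM in the GC-named fish oil/pectin libraries. Without the prefix it was 12480 to 12600 and 12600 to 12660 CPM. The summed level of 9 T and NK cell genes was 38.5 to 75.3 CPM in the GC-named corn oil/cellulose libraries, 14.5 to 31.7 CPM in the GC-named fish oil/pectin libraries, and 10.4 to 17.4 CPM in the libraries without the prefix. Counts on 4 Y-linked genes passed 100 in all 6 libraries without the prefix and in 3 of the 10 GC-named ones (2 corn oil/cellulose and 1 fish oil/pectin), and the labels do not give sex. Fish oil/pectin library 7 stood apart, with 0.631 CPM of Hoxd13, a gene of the distal colon, against 23.9 to 100.5 CPM in the other 15 libraries. In bulk RNA a lower value from fewer cells of a type and one from less RNA per cell cannot be told apart.

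Over the 38 genes, 8 rose and 10 fell with fish oil/pectin (adjusted p below 0.05), and 20 did not pass the test. The shares, 21.1% and 26.3% of the members, stand beside 21.7% of all genes tested that rose and 20.1% that fell. The share of rises was close to the background and that of falls above it, a difference that was not tested. The members' median log2 fold change was -0.13, against 0.00 for all genes, and their median absolute log2 fold change was 0.29, against 0.23. In none of the 38 did the diet groups separate completely over all 16 libraries. Complete separation was found for 2.35% of all genes in the upward and 0.999% in the downward direction. Log2 fold changes in the text are fish oil/pectin over corn oil/cellulose, adjusted for the form of the library name, with their standard errors (SE).

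**Figure D1:**
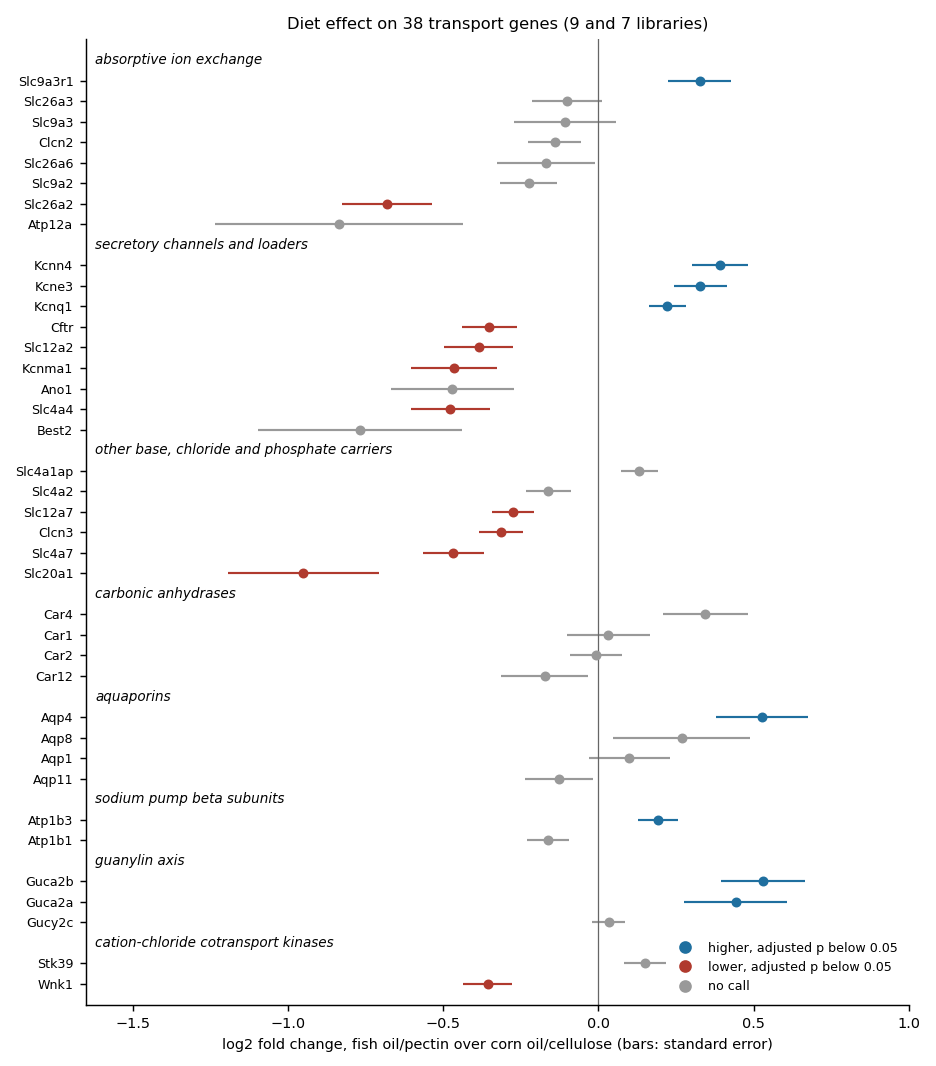
Log2 fold change of each of the 38 genes (horizontal axis, with its standard error as a bar), fish oil/pectin over corn oil/cellulose, grouped by role. The basolateral potassium channel genes Kcnq1, Kcne3 and Kcnn4 lie to the right of 0, and Cftr, Slc12a2 and Slc4a4 lie to the left. Grey points did not pass an adjusted p of 0.05.

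Of the 8 genes of absorptive ion exchange, 1 rose, 1 fell and 6 did not pass the test. Slc26a3, the apical chloride-bicarbonate exchanger lost in congenital chloride diarrhoea, was counted at 579 to 1079 CPM (median 642) with corn oil/cellulose and 517 to 905 CPM (median 747) with fish oil/pectin. The groups overlapped over most of their range, with a log2 fold change of -0.10 ± 0.11 (SE; edgeR adjusted p = 0.499). Slc9a3, the main apical sodium-proton exchanger, was at 102 to 254 CPM (median 126) with corn oil/cellulose and 80.3 to 239 CPM (median 134) with fish oil/pectin, again without separation. Its log2 fold change was -0.11 ± 0.17 (SE; edgeR adjusted p = 0.632). The related exchanger Slc9a2 had a log2 fold change of -0.22 ± 0.09 (SE; edgeR adjusted p = 0.0591), and the lowest library of all was fish oil/pectin library 1 at 212 CPM. Slc9a2 was called lower under 11 of the 34 other settings of the analysis and gave no call under 23.

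Slc26a2, a sulfate and anion carrier of the apical membrane, was the absorptive gene that fell. It was counted at 908 to 1461 CPM (median 1181) with corn oil/cellulose and 417 to 989 CPM (median 732) with fish oil/pectin, so each fish oil/pectin library lay below the corn oil/cellulose median and the ranges met only between 908.5 and 988.8 CPM. The log2 fold change was -0.68 ± 0.14 (SE; edgeR adjusted p = 0.00169), and its call held in each of the 34 other settings of the analysis. Slc9a3r1 (NHERF1), a scaffold that holds Slc9a3 and Cftr near the apical membrane, rose with a log2 fold change of 0.33 ± 0.10 (SE; edgeR adjusted p = 0.0159). Its rise came from the GC-named libraries, where the 5 fish oil/pectin values, 319.8 to 389.5 CPM, were all above the 5 corn oil/cellulose values of 205 to 274 CPM. Without the prefix, fish oil/pectin was at 202 and 204 CPM, against 206 to 235 CPM. The remaining genes of the group gave no call. Log2 fold changes were -0.17 ± 0.16 for the anion exchanger Slc26a6, which at about 3 CPM was barely expressed, -0.14 ± 0.08 for the chloride channel gene Clcn2 and -0.84 ± 0.40 for Atp12a, the catalytic subunit of the colonic proton-potassium pump.

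The 9 secretory genes moved in both directions, with 3 higher and 4 lower. Of those that fell, Slc12a2 and Slc4a4 serve the entry of chloride and bicarbonate and Cftr the apical exit of chloride. The fourth, Kcnma1, encodes a potassium channel, as do Kcnn4, Kcne3 and Kcnq1, which rose. Cftr, the gene of the anion channel that is opened by cyclic AMP signalling and mutated in cystic fibrosis, was at 225 to 349 CPM (median 274) with corn oil/cellulose and 164 to 296 CPM (median 190.2) with fish oil/pectin. In 6 of the 7 fish oil/pectin libraries it lay below the corn oil/cellulose median, and the exception was library 1. Mean levels were 273 ± 36.3 CPM (SD, n = 9) and 209 ± 52.5 CPM (SD, n = 7), a log2 fold change of -0.35 ± 0.09 (SE; edgeR adjusted p = 0.00456). Within the GC-named libraries the groups did not overlap: corn oil/cellulose had 276, 225, 259, 274 and 252 CPM and fish oil/pectin 194, 190.2, 167, 182 and 164 CPM.

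Slc12a2 (NKCC1), the cotransporter that brings chloride into the cell from the blood side, was at 498 to 709 CPM (median 568) with corn oil/cellulose and 292 to 647 CPM (median 387) with fish oil/pectin. The 5 GC-named fish oil/pectin libraries were the 5 lowest of all 16, while the other 2, at 647 and 647 CPM, lay inside the upper part of the corn oil/cellulose range. Its log2 fold change over all libraries was -0.39 ± 0.11 (SE; edgeR adjusted p = 0.0101). Slc4a4, the sodium bicarbonate cotransporter that loads bicarbonate, was at 108 to 138 CPM (median 121) with corn oil/cellulose and 54.3 to 142 CPM (median 73.5) with fish oil/pectin, and again its 5 GC-named fish oil/pectin libraries were the 5 lowest. They had 84.1, 71.9, 73.5, 54.3 and 57.4 CPM and the other 2 had 123 and 142 CPM. Over all libraries the log2 fold change was -0.48 ± 0.13 (SE; edgeR adjusted p = 0.00733). Kcnma1, the large-conductance potassium channel gene that is also found in smooth muscle, fell from low levels, 9.14 to 18.2 CPM (median 11.1) with corn oil/cellulose and 5.44 to 15.3 CPM (median 6.41) with fish oil/pectin, with a log2 fold change of -0.47 ± 0.14 (SE; edgeR adjusted p = 0.0121). The summed level of 6 smooth muscle genes was at most 0.616 CPM in any library.

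Kcnn4, the calcium-activated potassium channel gene, was at 60.3 to 84.1 CPM (median 72.4) with corn oil/cellulose and 80 to 122 CPM (median 93.3) with fish oil/pectin. All 7 fish oil/pectin libraries were above the corn oil/cellulose median, and 6 of them were above its highest library. The log2 fold change was 0.39 ± 0.09 (SE; edgeR adjusted p = 0.0028). Kcne3, the beta subunit that holds the Kcnq1 channel open in colonic crypts, was at 188 to 296 CPM (median 230) with corn oil/cellulose and 245 to 329.6 CPM (median 283) with fish oil/pectin, and its partner Kcnq1 was at 148 to 196 CPM (median 166) with corn oil/cellulose and 180.4 to 210.2 CPM (median 195) with fish oil/pectin. Both lay above the corn oil/cellulose median in each of the 7 fish oil/pectin libraries, although the groups overlapped. Log2 fold changes were 0.33 ± 0.08 (SE; edgeR adjusted p = 0.00541) for Kcne3 and 0.22 ± 0.06 (SE; edgeR adjusted p = 0.00731) for Kcnq1. In the libraries without the GC prefix the estimates for the 3 genes were also positive, from 0.17 to 0.23, but none passed the test there. Ano1 and Best2, calcium-activated anion channel genes, had log2 fold changes of -0.47 ± 0.20 (SE; edgeR adjusted p = 0.0679) and -0.77 ± 0.33 (SE; edgeR adjusted p = 0.0741), which did not pass. Ano1 also marks the interstitial cells of Cajal. Kit, another gene of those cells, was at 61.4 to 119.8 CPM (median 77.5) and 34.3 to 86.8 CPM (median 52.8) in the same order of diets. Etv1, a further gene of those cells, was at only 1.14 to 2.93 CPM (median 2.07) and 1.15 to 1.93 CPM (median 1.65). It did not pass the test (edgeR adjusted p = 0.228). The part of such cells in the Ano1 values was not tested.

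**Figure D2:**
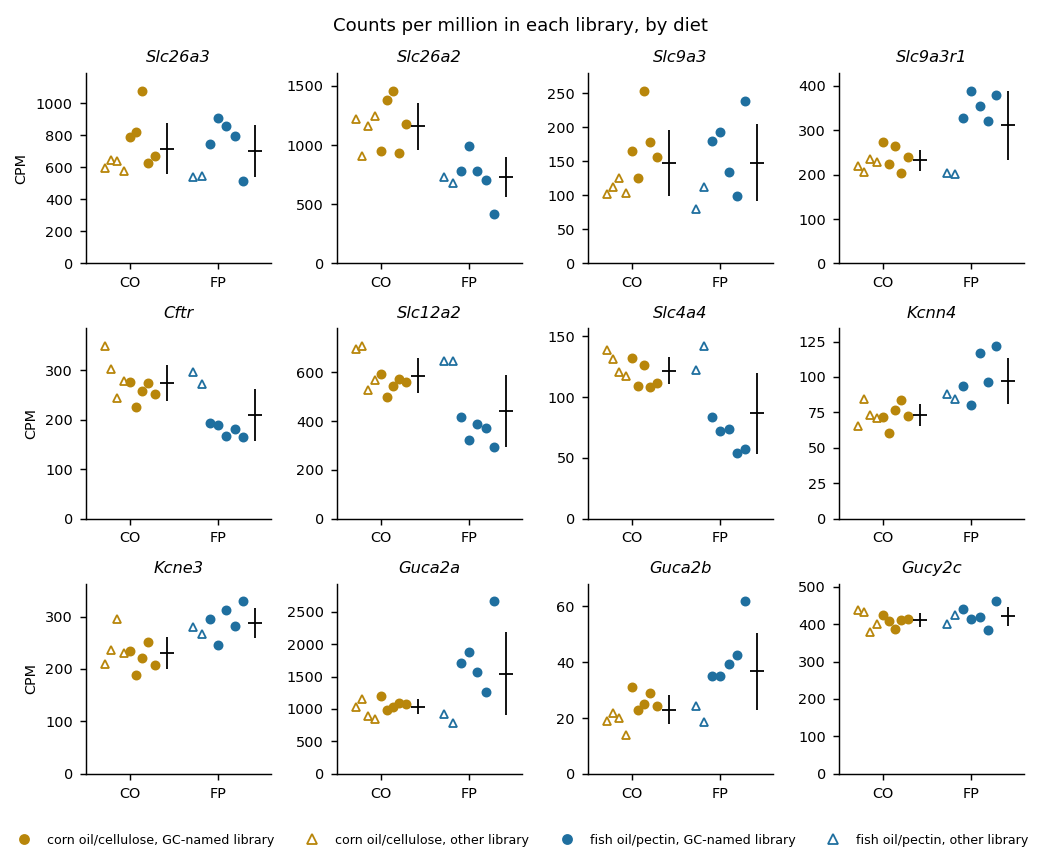
CPM of 12 of the genes in each library (vertical axes, from 0), with corn oil/cellulose (CO) at the left and fish oil/pectin (FP) at the right of each panel. Filled circles are GC-named libraries, open triangles are the others, and the black bars are the mean and SD. For Slc12a2, Slc4a4 and Guca2a the filled fish oil/pectin points lie together outside the corn oil/cellulose range, and the open fish oil/pectin triangles lie apart from them.

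In the guanylin axis both hormone genes rose and the receptor gene did not pass the test. Guca2a, the guanylin gene, was at 839 to 1203 CPM (median 1036) with corn oil/cellulose and 788 to 2664 CPM (median 1573) with fish oil/pectin. The 5 GC-named fish oil/pectin libraries held 1715, 1876, 1573, 1266 and 2664 CPM, all above every corn oil/cellulose library, while the other 2 held 919 and 788 CPM, 1 of which was below them all. Mean levels were 1034 ± 117 CPM (SD, n = 9) and 1543 ± 637 CPM (SD, n = 7), and the log2 fold change was 0.44 ± 0.17 (SE; edgeR adjusted p = 0.0412). This call was kept under only 14 of the 34 other settings. It did not survive the omission of a single library for 10 of the 16 libraries (corn oil/cellulose 4 to 9 and fish oil/pectin 3, 4, 5 and 7), with estimates from 0.30 to 0.57 over all single omissions.

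Guca2b, the uroguanylin gene, was at 14.1 to 31.1 CPM (median 22.9) with corn oil/cellulose and 18.6 to 61.9 CPM (median 35.1) with fish oil/pectin. The 5 GC-named fish oil/pectin libraries, with 34.9, 35.1, 39.5, 42.6 and 61.9 CPM, were again above every corn oil/cellulose library, and the other 2 had 24.4 and 18.6 CPM. Its log2 fold change was 0.53 ± 0.14 (SE; edgeR adjusted p = 0.00526), and the call held whichever single library was left out. Gucy2c, the receptor gene, was nearly level, at 379 to 438 CPM (median 409.5) with corn oil/cellulose and 385 to 462 CPM (median 419) with fish oil/pectin. The log2 fold change was 0.03 ± 0.05 (SE; edgeR adjusted p = 0.646). Per kilobase of annotated exon, Guca2a was at 2116 CPM, Gucy2c at 104.8 CPM and Guca2b at 33.3 CPM over all libraries. Of 12 marker genes of mature surface cells, 2 rose, 2 fell and 8 did not pass the test, with a median log2 fold change of 0.03. Those that rose were Krt20, with a log2 fold change of 0.45 ± 0.15 (SE; edgeR adjusted p = 0.0194), and Plac8, with 0.47 ± 0.12 (SE; edgeR adjusted p = 0.00453). Those that fell were Ceacam1, with -0.30 ± 0.10 (SE; edgeR adjusted p = 0.0218), and Ceacam20, with -0.38 ± 0.13 (SE; edgeR adjusted p = 0.0281). With a diet effect for each set of libraries, 4 of the 12 rose and 2 fell in the GC-named libraries, where 23.1% of all genes rose and 21.8% fell. Their summed level there was 15760 to 20280 CPM with corn oil/cellulose and 19500 to 23460 CPM with fish oil/pectin. In the libraries without the prefix it was 12620 to 15410 and 11430 to 13320 CPM. The part of surface cells in the guanylin values was not tested.

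The guanylin genes are neighbours on mouse chromosome 4, transcribed towards each other with 17135 bp between their ends. The 250 bases before the start sites of these genes, of the absorptive exchanger gene Slc26a3 and of the secretory channel gene Cftr are shown because these 4 genes carry the contrast between hormone, absorption and secretion. They come from RefSeq on GRCm38.p6, which held 28 of the 38 genes, and run 5′ to 3′ along each gene. Capitals mark 3 motifs on either strand: the TATA box TATAAA, the GATA site AGATAA and the GC box GGGCGG. In these windows no match overlaps one of another motif, while GC boxes overlap each other in Cftr.
Guca2a: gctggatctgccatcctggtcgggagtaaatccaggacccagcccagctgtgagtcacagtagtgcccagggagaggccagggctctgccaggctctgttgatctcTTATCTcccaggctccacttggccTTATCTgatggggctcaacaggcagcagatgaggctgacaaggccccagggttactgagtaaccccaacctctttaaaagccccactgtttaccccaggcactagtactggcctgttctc
Guca2b: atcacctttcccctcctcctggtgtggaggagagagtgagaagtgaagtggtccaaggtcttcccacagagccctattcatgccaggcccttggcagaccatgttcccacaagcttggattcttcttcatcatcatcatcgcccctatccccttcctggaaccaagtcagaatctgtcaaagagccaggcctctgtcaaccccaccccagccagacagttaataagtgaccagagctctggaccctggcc
Slc26a3: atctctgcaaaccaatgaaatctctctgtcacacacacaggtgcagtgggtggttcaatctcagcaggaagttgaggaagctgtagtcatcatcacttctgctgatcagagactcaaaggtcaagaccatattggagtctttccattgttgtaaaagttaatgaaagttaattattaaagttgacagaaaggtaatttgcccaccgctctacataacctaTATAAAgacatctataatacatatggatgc
Cftr: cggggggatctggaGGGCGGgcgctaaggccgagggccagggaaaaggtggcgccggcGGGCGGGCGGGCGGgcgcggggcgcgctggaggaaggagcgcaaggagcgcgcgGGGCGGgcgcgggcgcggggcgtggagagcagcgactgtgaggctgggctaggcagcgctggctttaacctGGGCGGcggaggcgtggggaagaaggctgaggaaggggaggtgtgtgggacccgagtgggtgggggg
The windows are chr4:119637482-119637731 on the plus strand for Guca2a, chr4:119658946-119659195 on the minus strand for Guca2b, chr12:31437969-31438218 on the plus strand for Slc26a3 and chr6:18170437-18170686 on the plus strand for Cftr. Guca2a held 2 GATA sites, both on the minus strand, and neither of the other motifs. Guca2b held none of the 3. Slc26a3 held 1 TATA box in a window of 38.8% G and C, whereas Cftr held 6 GC boxes in one of 76.4% G and C. Among 32851 RefSeq windows of this length, 12.4% held the TATA box, 9.99% the GATA site and 32.7% the GC box. The 28 matched genes had 35 windows, of which 2, 1 and 21 held them, in the same order. These windows belonged to 2, 1 and 19 genes. A match describes the letters in these windows, not a site in use.

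Of the 6 other carriers of base, chloride and phosphate, 4 fell and none rose. Slc20a1, a sodium phosphate cotransporter, had the most negative estimate of the 38 genes. It was at 375 to 896 CPM (median 568) with corn oil/cellulose and 134 to 563 CPM (median 334) with fish oil/pectin, and all 7 fish oil/pectin libraries lay below the corn oil/cellulose median. The log2 fold change was -0.95 ± 0.24 (SE; edgeR adjusted p = 0.00607), 1.93-fold lower. Its estimates were close in the GC-named libraries (-0.92 ± 0.31) and in the others (-1.01 ± 0.45).

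Slc4a7, an electroneutral sodium bicarbonate cotransporter, was at 101 to 198 CPM (median 131) with corn oil/cellulose and 61.8 to 169 CPM (median 80.3) with fish oil/pectin, with a log2 fold change of -0.47 ± 0.10 (SE; edgeR adjusted p = 0.00153). Its libraries without the GC prefix were high under both diets, and its fall was within the GC-named ones. Clcn3, a chloride-proton exchanger of endosomes, was at 130 to 168 CPM (median 155) with corn oil/cellulose and 87.5 to 157 CPM (median 111) with fish oil/pectin. Its log2 fold change was -0.31 ± 0.07 (SE; edgeR adjusted p = 0.0023). Slc12a7, a potassium-chloride cotransporter that lets chloride out towards the blood, was at 176 to 219.5 CPM (median 197) with corn oil/cellulose and 138 to 185 CPM (median 166) with fish oil/pectin, with all 7 fish oil/pectin libraries below the corn oil/cellulose median. It fell, with a log2 fold change of -0.28 ± 0.07 (SE; edgeR adjusted p = 0.00406). Slc4a2, a basolateral chloride-bicarbonate exchanger, and Slc4a1ap, an adaptor named for its binding to a family member, had log2 fold changes of -0.16 ± 0.07 and 0.13 ± 0.06 and gave no call. Both genes overlap exons of a neighbour on the opposite strand (Fastk and Supt7l). The libraries were stranded, but how the counting treated strand was not given in the sources used here. Whether the counts of such pairs were kept apart is therefore not known. The same holds for Clcn2 with Polr2h and Atp1b1 with Nme7.

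None of the 4 carbonic anhydrase genes passed the test over all libraries. Car1, the abundant cytosolic enzyme, had the highest level per kilobase of annotated exon of the 38 genes (4076 CPM), with libraries at 3884 to 6744 CPM (median 4368) with corn oil/cellulose and 3710 to 7103 CPM (median 5608) with fish oil/pectin. Its log2 fold change was 0.03 ± 0.13, and that of Car2, the fast cytosolic form, was -0.01 ± 0.08. Car4, the enzyme anchored to the apical surface, was nearest to a call at 0.34 ± 0.14 (SE; edgeR adjusted p = 0.0532), with 305 to 738 CPM (median 441) with corn oil/cellulose and 374 to 995 CPM (median 756) with fish oil/pectin. Its 5 GC-named fish oil/pectin libraries were at 579 to 995 CPM and the other 2 at 374 and 400.4 CPM. With a diet effect for each set of libraries, Car4 rose in the GC-named ones, at 0.52 ± 0.16 (SE; edgeR adjusted p = 0.0154). In the others it was at 0.01 ± 0.22. It was called higher under 8 of the 34 other settings. Car12, a membrane form, had a log2 fold change of -0.17 ± 0.14.

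Among the aquaporins only Aqp4, a basolateral water channel gene, rose. It was at 269.9 to 716 CPM (median 459) with corn oil/cellulose and 358 to 975 CPM (median 586) with fish oil/pectin. The highest library was fish oil/pectin library 2 and the lowest was corn oil/cellulose library 9, but the ranges overlapped widely, and the log2 fold change was 0.53 ± 0.15 (SE; edgeR adjusted p = 0.00915). The estimate was 0.50 ± 0.19 in the GC-named libraries and 0.58 ± 0.26 in the others. Aqp8, a channel of surface cells, had a log2 fold change of 0.27 ± 0.22 and a spread from 142 to 458 CPM among the fish oil/pectin libraries alone. Aqp1 and Aqp11 had log2 fold changes of 0.10 ± 0.13 and -0.13 ± 0.11. The sodium pump beta subunit gene Atp1b3 rose, with a log2 fold change of 0.19 ± 0.07 (SE; edgeR adjusted p = 0.0246). The call was lost under 10 of the 34 other settings, among them the omission of corn oil/cellulose library 6 or 9 alone, with estimates of 0.15 to 0.22 over all single omissions, and the fit with the replicate number as a block. Atp1b1, the abundant one at 2257 CPM with corn oil/cellulose and 2075 CPM with fish oil/pectin, did not pass at -0.16 ± 0.07 (SE; edgeR adjusted p = 0.0618).

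The kinases of cation-chloride cotransport differed from each other. Wnk1, which switches on Stk39 and through it Slc12a2, was at 122 to 157 CPM (median 135) with corn oil/cellulose and 78 to 156 CPM (median 93.7) with fish oil/pectin. Its 5 GC-named fish oil/pectin libraries, 96.4, 85.5, 93.7, 78 and 85.1 CPM, were the 5 lowest of all 16, and the log2 fold change was -0.36 ± 0.08 (SE; edgeR adjusted p = 0.00191). Stk39 (SPAK), the kinase that acts on Slc12a2, had a log2 fold change of 0.15 ± 0.07 (SE; edgeR adjusted p = 0.0829) and gave no call.

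Absorptive and secretory genes were then set against each other within each library. The ratio of Slc26a3 to Cftr, in CPM, was 2.30 to 4.17 in the GC-named corn oil/cellulose libraries and 3.15 to 5.14 in the GC-named fish oil/pectin libraries. It was 1.71 to 2.63 and 1.82 to 2.00 in the libraries without the prefix. The ratio of Slc9a3 to Slc12a2 ran from 0.253 to 0.466 and from 0.267 to 0.818 in the GC-named libraries, and from 0.146 to 0.238 and from 0.124 to 0.174 in the others, in the same order of diets. Diet groups overlapped in each ratio in both sets of libraries. The mean log2 CPM of the 8 absorptive genes less that of the 9 secretory genes was 0.645 to 1.162 with corn oil/cellulose and 0.827 to 1.309 with fish oil/pectin in the GC-named libraries. In the others it was 0.377 to 0.558 and 0.174 to 0.216, and there the 2 fish oil/pectin libraries were below the 4 corn oil/cellulose libraries. The 2 sets of libraries thus lay further apart from each other than the diets did within the GC-named set. These ratios and scores are descriptions with no test.

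The diet effect itself was compared between the sets of libraries, in 1 fit with a diet effect for each. In the GC-named libraries 9 members rose and 10 fell, where 23.1% of all genes rose and 21.8% fell. In the others no gene passed the adjusted threshold (0% of genes tested), although 7 members and 2385 of all genes had an unadjusted p below 0.05. When those 6 libraries were fitted alone, 614 genes rose and 286 fell, among them 0 members that rose and 3 that fell (Slc26a2, Slc9a2 and Aqp11). Within the GC-named libraries the diet groups did not overlap for 3 members that were higher (Slc9a3r1, Guca2a and Guca2b) and 8 that were lower (Cftr, Best2, Slc12a2, Kcnma1, Slc4a4, Slc4a7, Clcn3 and Wnk1). Such separation was found for 15.2% of all genes in the upward and 13.8% in the downward direction.

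The difference between the sets passed the test for 6 members, 15.8% of them, against 8.41% of all genes. Guca2a had a log2 fold change of 0.76 ± 0.15 in the GC-named libraries and -0.20 ± 0.21 in the others, a difference with an edgeR adjusted p of 0.0354. Slc9a3r1 went from 0.56 ± 0.08 to -0.13 ± 0.11 (edgeR adjusted p = 0.0163). Slc12a2 went from -0.63 ± 0.10 to 0.05 ± 0.14 (edgeR adjusted p = 0.0267). For Wnk1, whose kinase pathway acts on Slc12a2, the values were -0.55 ± 0.06 and -0.02 ± 0.08 (edgeR adjusted p = 0.0161). The bicarbonate cotransporter genes Slc4a4 and Slc4a7 had -0.78 ± 0.11 and -0.67 ± 0.10 in the GC-named libraries and 0.06 ± 0.14 and -0.12 ± 0.13 in the others, with edgeR adjusted p-values of 0.018 and 0.0427. The set without the prefix has only 2 fish oil/pectin libraries, so with either left out the difference rests on 1 library. Each of the 6 calls needed fish oil/pectin library 2, and most of them needed library 1 as well. Most of the calls over all genes also needed both of these libraries. Without corn oil/cellulose library 3 the count of 6 fell to 3, and that over all genes fell from 1204 to 350. These losses were thus not particular to the members. T and NK cell genes, epithelial genes and Y-linked counts also differed between the sets, as given above, and their part in these differences was not tested.

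**Figure D3:**
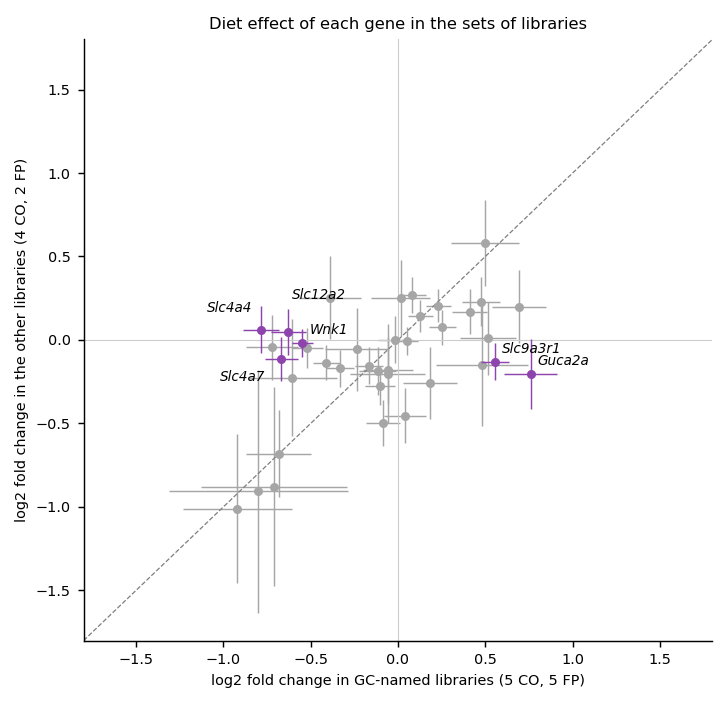
Log2 fold change of each gene in the GC-named libraries (horizontal axis) against that in the other libraries (vertical axis), with standard errors as bars and the line of equal effects dashed. The 6 labelled purple genes are those whose effects differed at an adjusted p below 0.05, and they lie near 0 on the vertical axis, from -0.20 to 0.06.

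Diet effects of the members went with the length of their exons. The 8 that rose had 594 to 6233 bases of annotated exon, and 9 of the 10 that fell had 7765 to 22825 bases, the exception being Slc20a1 with 5580. Of 12 members with over 7500 bases 9 fell and 0 rose, while 49.7% of all 2638 such genes fell and 5.8% rose. Of 10 members with under 2500 bases 0 fell and 5 rose, while 5.04% of all 3708 such genes fell and 35.5% rose. Spearman's rho of the log2 fold change with exon length was -0.64 over the 38 members, which share the same libraries, and -0.42 over 14261 genes with a length. Over the members it was -0.67 in the GC-named libraries and -0.14 in the others.

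With each library's trend on exon length removed, 5 of the 8 rises and 4 of the 10 falls still passed the test. Kcnn4, Kcne3, Kcnq1, Aqp4 and Guca2b stayed higher, with log2 fold changes of 0.46, 0.21, 0.24, 0.64 and 0.33. Slc20a1 at -0.86 (edgeR adjusted p = 0.0144), Slc26a2 at -0.42 (edgeR adjusted p = 0.0319), Slc4a4 at -0.26 (edgeR adjusted p = 0.0459) and Cftr at -0.19 (edgeR adjusted p = 0.0499) stayed lower. Slc12a2 no longer passed, at -0.16 (edgeR adjusted p = 0.15), nor did Slc4a7 at -0.16 (edgeR adjusted p = 0.0776), Kcnma1 at -0.14 (edgeR adjusted p = 0.392) or Slc12a7 at -0.0064. Wnk1 and Clcn3, the longest of the members, moved to 0.01 and 0.02. Of the rises, Guca2a at 0.24 (edgeR adjusted p = 0.221), Slc9a3r1 at 0.22 (edgeR adjusted p = 0.0639) and Atp1b3 at 0.10 (edgeR adjusted p = 0.157) were lost too. In this setting Slc4a1ap and Stk39 rose and Atp1b1 fell, which they did not in the model without the correction. Whether length or another property that goes with it lies behind the trend was not tested.

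**Figure D4:**
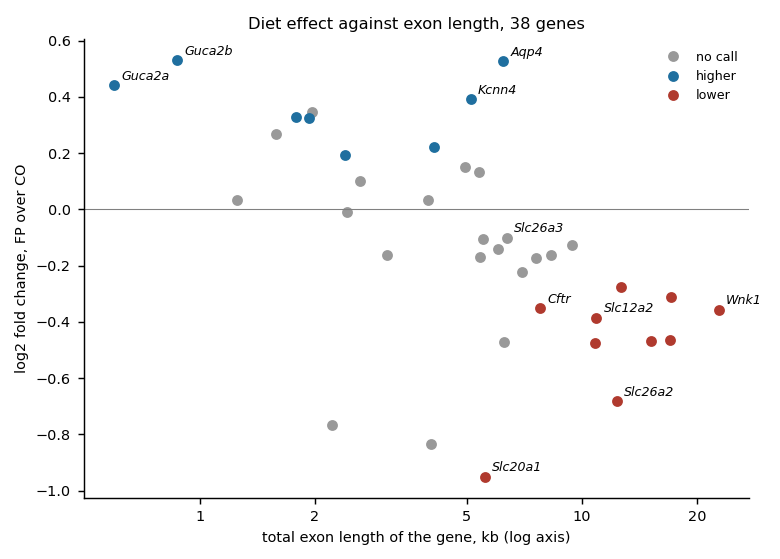
Log2 fold change of each gene (vertical axis) against its total annotated exon length in kb (horizontal log axis). Blue points rose and have 594 to 6233 bases, and red points fell and have at least 7765 bases except Slc20a1 with 5580. Grey points did not pass the test.

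Fish oil/pectin library 7, the one with hardly any Hoxd13, was also the lowest of all 16 in several members. It had 34.2 CPM of Atp12a, where the other libraries had 160 to 882 CPM. Its Best2, an anion channel gene of goblet cells, was at 5.17 CPM against 26.5 to 77.0 CPM, and its Ano1 was at 77 CPM against 201 to 385 CPM. Slc20a1 (134 CPM) and Slc26a2 (417 CPM) were lowest there as well. Guca2a (2664 CPM) and Guca2b (61.9 CPM) were highest there. Without this library Best2 at -0.58 (edgeR adjusted p = 0.00551), Ano1 at -0.33 (edgeR adjusted p = 0.0312) and Atp12a at -0.65 (edgeR adjusted p = 0.0332) fell, and Guca2a at 0.30 (edgeR adjusted p = 0.0744) no longer passed. Slc20a1 and Slc26a2 kept their calls, at -0.82 (edgeR adjusted p = 0.00315) and -0.59 (edgeR adjusted p = 0.000824). Atp12a, Best2 and Ano1 were picked for this description after their values were seen.

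**Figure D5:**
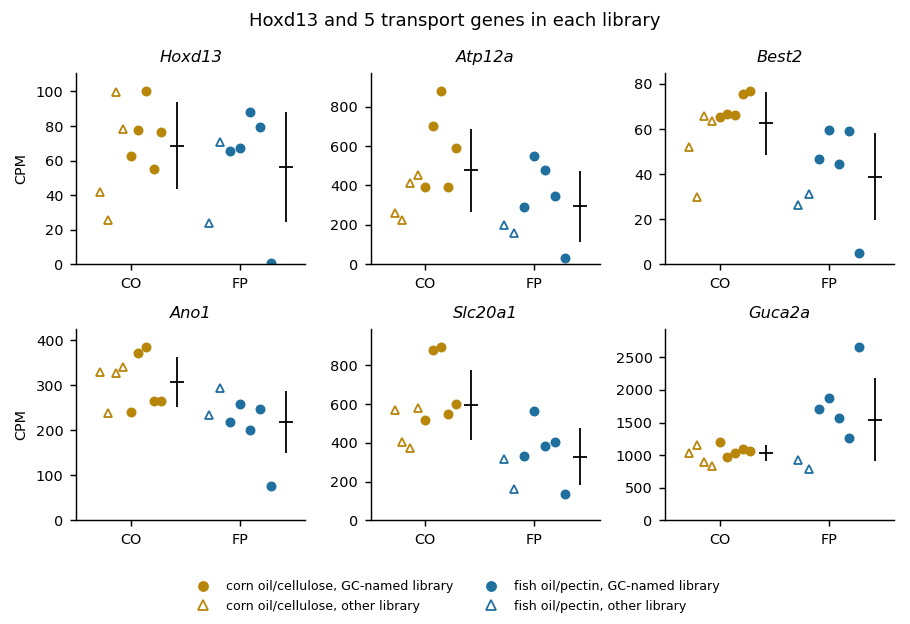
CPM of Hoxd13 and of 5 members in each library (vertical axes, from 0), with symbols and bars as in the plot of values by library. The last fish oil/pectin point in each panel is library 7, which is the lowest for Hoxd13 (0.631 CPM), Atp12a, Best2, Ano1 and Slc20a1 and the highest for Guca2a.

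Beyond the 38, 120 further genes of the same processes were listed, of which 76 passed the filter, 4 rose and 25 fell, where 21.7% of all genes tested rose and 20.1% fell. Their median log2 fold change was -0.16, against 0.00 for all genes. Against these same shares of all genes, other chloride channel genes fell in 8 of 14 cases and rose in none, other carriers and exchangers fell in 8 of 18 and rose in none, and regulators fell in 7 of 20 and rose in 1. No family was tested as a set. These counts took no account of exon length, with which the diet effects of all genes went, as given above. Adcy6, an adenylate cyclase that makes the cyclic AMP which opens Cftr, had the lowest p. It was at 529.7 to 667 CPM (median 594) with corn oil/cellulose and 287 to 464 CPM (median 425) with fish oil/pectin, without overlap, and fell, with a log2 fold change of -0.55 ± 0.09 (SE; edgeR adjusted p = 0.000466). Pde5a, which breaks down cyclic GMP, fell with a log2 fold change of -0.30 ± 0.05 (SE; edgeR adjusted p = 0.000598). Clcn4 and Clcn5, chloride-proton exchangers of endosomes, fell with log2 fold changes of -0.33 ± 0.06 (SE; edgeR adjusted p = 0.000712) and -0.50 ± 0.11 (SE; edgeR adjusted p = 0.00153). The genes that rose were Kcnk1, a potassium leak channel (0.31 ± 0.08), Fxyd3, a sodium pump modulator (0.35 ± 0.10), Cab39l, a partner of kinases related to Stk39 (0.15 ± 0.05), and Car3 (0.47 ± 0.18), at about 1 CPM.

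With the mean level of non-epithelial marker genes added to the model, 0 of the 38 rose and 2 fell: Slc20a1 at -1.33 (edgeR adjusted p = 0.0495) and Slc26a2 at -0.87 (edgeR adjusted p = 0.0439). Over all genes the calls went from 3103 higher and 2876 lower to 363 and 250. The marker mean itself moved with diet in the GC-named libraries, from 0.218 to 0.630 log2 CPM with corn oil/cellulose against -0.04 to 0.15 with fish oil/pectin, so that within this set the diet and the marker level cannot be told apart. In the other libraries, where the mean was -0.10 to -0.01 with corn oil/cellulose and -0.14 to -0.06 with fish oil/pectin, the estimate for Slc26a2 was -0.68 ± 0.26, against -0.68 ± 0.19 in the GC-named ones. These estimates are from the fit with a diet effect for each set, where no gene passed in those other libraries. Slc26a2 (edgeR adjusted p = 0.232) and Slc20a1 at -1.01 thus did not pass there either. Cftr, Slc12a2, Slc4a4 and Wnk1, which fell over all libraries, were at -0.05, 0.05, 0.06 and -0.02 there. When the libraries without the prefix were fitted alone, Slc26a2 passed and Slc20a1 did not.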

How the data were processed

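Raw read counts per gene symbol, deposited by the authors in 1 table of 16 libraries with 0 unused per-sample columns, were used as they stand. Per the labels' protocols, 200 ng of total RNA per library was made into stranded poly(A) libraries. The submitters' processing notes name the aligner STAR 2.6.0a, the counter HTSeq 0.11.1 and the build GRCm38, while a strand setting was not given in the sources used here. Symbols were matched to GENCODE M21 (98.9%) for position and total exon length. edgeR 4.0.16 in R 4.3.3 tested diet with the form of the library name as a term (TMM scaling, filterByExpr, robust quasi-likelihood test, Benjamini-Hochberg adjustment over 14321 genes, threshold 0.05). Each SE is the size of the log2 fold change divided by the square root of F. Within diets, the chi-square of 57 pairs of libraries was 8.20 to 141 per degree of freedom, so none of these pairs were copies of the same library. Whether the libraries came from separate mice cannot be read from it. The script was tested on simulated data.

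The members and the lists of roles, pathway genes and markers were chosen with earlier results of these data known. Full values were given for called members of at least 10 CPM, up to the 12 with the lowest p, and for Slc26a3, Cftr, Slc9a3, Slc12a2, Guca2a and Gucy2c. Other pathway genes were named by the 4 lowest p-values in each direction, and other members were described by range or fold change. The alternatives were other scalings, filters, covariates and thresholds, a replicate block, subsets of libraries, DESeq2 1.42.0, limma 3.58.1 voom, and removal of the exon length trend (loess, span 0.3).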

Additional observations from a re-analysis of the deposited data

Results flagged for a closer look

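In 3 of 76 diet groups of member values (38 genes in each diet), the highest or lowest library lay far from its nearest neighbour relative to the group's range, and chance gives about 1 in 20. Corn oil/cellulose library 7 had 1079 CPM of Slc26a3, where the other 8 libraries of that diet had 579 to 817 CPM, and 253.8 CPM of Slc9a3, where the others had 102 to 178 CPM. Fish oil/pectin library 7 had 77.0 CPM of Ano1 against 201 to 294 CPM in the other 6.

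The diet effect differed between the sets of libraries with and without the GC prefix, by the test of the difference itself, for 6 members. The differences in log2 fold change, others less GC-named, were -0.69 for Slc9a3r1, 0.68 for Slc12a2, 0.84 for Slc4a4, 0.55 for Slc4a7, -0.96 for Guca2a and 0.53 for Wnk1. Each of these genes had its larger effect in the GC-named libraries.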

How the results depend on the processing

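Against 8 members higher and 10 lower with fish oil/pectin, leaving out each replicate gave 6 to 9 higher and 10 to 13 lower, and all 10 falls passed in each of these fits. At most 5 members were higher with total counts alone (5), without fish oil/pectin libraries 6 and 7 (5), at a threshold of 0.01 (5), in the libraries numbered in the 700s alone (3), in the 6 libraries lacking the GC prefix (0) and with the non-epithelial marker covariate (0). Fewer were lower in the libraries without the prefix alone (3), with that covariate (2), with the exon length trend removed (5), in the libraries numbered in the 700s alone (7), with no term for the name form (8) and at a threshold of 0.01 (8). Total counts alone moved the median of all genes to -0.08 and gave 15 members lower, with 37.3% of all calls higher against 51.9%. With the length trend removed 66.6% were higher, and with the libraries without the prefix alone 68.2%. The subset numbered in the 700s lacks corn oil/cellulose libraries only. Over all genes it gave 1194 higher and 1056 lower, against 3103 and 2876 in the main fit.

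Of the members called in the main fit, 4 turned sign in the libraries without the prefix alone. They were Slc9a3r1 (-0.12), Slc12a2 (0.060), Slc4a4 (0.071) and Guca2a (-0.19). Of the same called members, Clcn3 (0.021) and Wnk1 (0.013) turned sign with the length trend removed. Turns among members without a call are not listed. The cause of these turns was not tested. DESeq2 and limma voom each gave 9 higher and 13 lower. The count of members whose effect differed between the sets, 6, became 0 to 7 when a replicate was left out and 1 (Slc4a4) with the length trend removed, which was tried after seeing the data. Also added after seeing the data, sex as a covariate gave 8 and 10, and leaving out fish oil/pectin libraries 1 and 7 gave 7 and 11.

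With the replicate number as a block, 3 members were higher and 11 lower. Libraries of the same number correlated at -0.17 to 0.34 in their deviations from the group means, and only number 4 matched best with its own, so the numbers were not taken to pair libraries. With 2 fish oil/pectin libraries, the set without the prefix limits what any comparison within it can show.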
